A study of Ceratopteris richardii with 9 samples.

Results

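The 160 transcripts described here were the most specific to the differentiated root of the fern Ceratopteris richardii, out of 28952 transcripts in the table. They were chosen by their CPM, the counts of a transcript scaled to a library total of 1000000. A transcript was taken when its mean over the 3 libraries of differentiated root (DT) was at least 10 CPM and its score was at least 8. The score is the lowest DT value over the highest of the 6 other values, each with 0.5 CPM added, so a high score means that even the weakest DT library stood far above the strongest library of root tip (RT) or shoot (SH). The first condition was met by 13733 transcripts and both by 160, so an upper limit of 200 was not reached. Levels and scores of the DT against the other segments chose the members and are given as a description, without a test.

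RNA was sequenced from young sporophytes of the strain Hn-n, at 45 days after fertilization and until the third root borne on the stem emerged. All plants were grown on the same medium with sucrose. The DT held roots without their tip, the RT held only tips, and the SH held leaves and stem with no root, each pooled from many plants, with 3 libraries per segment. The labels number the replicates, and none of them names a batch, so p-values measure the spread between these pools.

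In the root of a fern, a single apical cell in the tip gives rise to all tissues behind it. The differentiated part has mostly ceased to divide, apart from the formation of lateral roots, and takes up water and ions through its epidermis and root hairs. Its endodermis, with Casparian strips, filters what passes inward, and its xylem and phloem carry water and sugars between root and shoot. The DT libraries hold all these tissues together, so the tissue in which a member is transcribed cannot be told. In such bulk samples, fewer cells of a type and less RNA per cell cannot be told apart either.

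Transcripts carry the numbers of the assembly made from these libraries. The files pair no number with a gene name, and 0 of the 28952 numbers matched the RefSeq gene table of the assembly C.richardii_v2, so members are given by number, without function, coordinates or sequence. The segments were checked with CriWUL, CriWOXA and CriWOXB, named by transcript number in the paper. CriWUL (transcript86941), a WUSCHEL-clade homeobox transcript, had 4.68, 2.71 and 2.97 CPM in the RT libraries and at most 0.448 CPM in any other library. CriWOXA (transcript45206), of the WOX9 clade, had 1.84, 4.38 and 7.05 CPM in the RT and at most 0.611 CPM in the DT. Its SH values of 1.23, 2.31 and 1.73 CPM overlapped those of the RT. CriWOXB (transcript86378), of the same clade, had 50.5, 26.8 and 25.7 CPM in the DT against 2.50 to 6.98 CPM in the RT, and its score of 3.51 left it outside the members. The first 2 were thus low in the DT and the last was highest there.

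Total counts ranged from 20065804 in RT replicate 1 to 27376687 in SH replicate 2. These are sums over the 28952 transcripts, which the authors had already filtered. At this depth 1 count was worth between 0.0365 and 0.0498 CPM, so the DT level of every member rested on many counts, while RT and SH levels under about 0.1 CPM rested on 1 or 2. CPM is not divided by transcript length, and a higher value of one transcript than of another can come from its length.

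As a group, the members went from a minor share of the RNA in the tip and the shoot to a visible share in the differentiated root. They took 1.91%, 2.54% and 2.73% of all counts in DT replicates 1 to 3 (2.39% ± 0.429, SD, n = 3). In the RT their share was 0.0979%, 0.0619% and 0.0807% (0.0802% ± 0.0180), and in the SH it was 0.0772%, 0.0797% and 0.0783% (0.0784% ± 0.00124). The summed level in the DT was 29.8-fold that of the RT and 30.5-fold that of the SH. RT and SH shares of all counts overlapped, and the SH libraries lay closest together. With TMM factors (edgeR's scaling, used for the test of RT against SH) the sums did not overlap, at 784, 579 and 798 CPM in the RT and 999, 938 and 918 CPM in the SH, so the order of these segments depends on the scaling.

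A small number of transcripts carried much of this sum. The member with the highest DT mean made up 17.9% of it, the first 10 made up 44.3% and the first 50 made up 79.8%. The DT mean ran from 10.6 to 4285 CPM with a median of 59.7 CPM, against a median of 34.6 CPM over all 13733 transcripts that reached the limit of 10. Of the members, 53 reached 100 CPM, 8 reached 500 and 1 reached 1000. Among all transcripts ranked by mean DT level, 6 members stood in the first 100 and 33 in the first 1000. Members were 160 of the 13733 transcripts that reached 10 CPM, a smaller share than in the first 100 or the first 1000. The choice used the DT level, and the 0.5 CPM added to each value lowers the score most at low levels. The rule itself thus favours members of high DT level, and no test was made of this difference in share. A member near the median, transcript63207 at a DT mean of 59.6 CPM, ranked 4048 of all 28952 transcripts. The strongest transcripts of the differentiated root were still mostly not members.

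**Figure D1:**
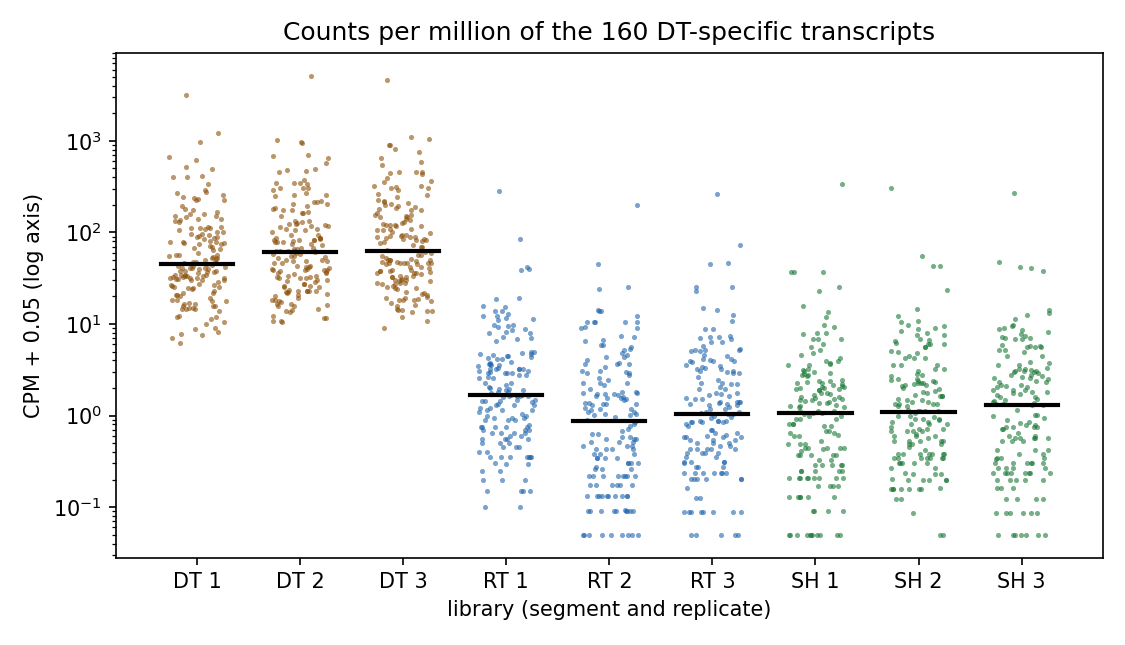
CPM of each of the 160 members in each of the 9 libraries, with 0.05 added and on a log axis; each point is a transcript and each black bar the median of the library. Medians were 44.8, 61.1 and 62.5 CPM in DT replicates 1 to 3 and between 0.816 and 1.64 CPM in the RT and SH libraries.

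The most abundant member, transcript125795, had 3129, 5117 and 4609 CPM in the DT. It had 285, 201 and 262 CPM in the RT and 337, 305 and 266 CPM in the SH. It was therefore abundant in every segment, and its score of 9.27 was among the lower ones. This transcript alone made up 31.1% of the members' sum in the RT and 38.6% in the SH.

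A like pattern, with a clear level left in the tip and the shoot, was seen in transcript28674, transcript117500 and transcript99767. transcript28674 had 961, 1020 and 905 CPM in the DT, 84.8, 25.5 and 72.5 CPM in the RT and 37.2, 55.6 and 47.4 CPM in the SH. transcript117500 had 624, 954 and 1105 CPM in the DT, 24.2 to 46.5 CPM in the RT and 36.8 to 42.8 CPM in the SH. transcript99767 had 658, 572 and 1047 CPM in the DT, 9.18 to 39.5 CPM in the RT and 23.2 to 37.4 CPM in the SH. RT and SH libraries overlapped for all 3 of them.

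Other abundant members were low elsewhere. transcript123600 had 512, 973 and 808 CPM in the DT against 1.67 to 9.75 CPM in the RT and 6.74 to 10.5 CPM in the SH. transcript95256 had 401, 700 and 593 CPM in the DT, and every other library lay between 5.34 and 10.6 CPM. For both, RT and SH libraries again overlapped.

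In 3 of the 10 most abundant members all SH libraries lay above all RT libraries, an order seen in 22.3% of all transcripts. transcript108821 had 1231, 690 and 656 CPM in the DT, 11.4, 3.34 and 8.87 CPM in the RT and 37.2, 42.6 and 42.1 CPM in the SH. transcript124759 had 245, 455 and 908 CPM in the DT, 3.91 to 4.88 CPM in the RT and 10.6 to 23.0 CPM in the SH. The last, transcript3485, is described with the comparison of RT and SH.

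Of the 10 largest scores, 2 belonged to members that were also among the 10 most abundant, and across the 160 members Spearman's rho of score and mean DT level was 0.25, as a description. transcript109538, with the largest score of 72.5, had 142, 350 and 394 CPM in the DT. It had 0.648, 1.46 and 0.188 CPM in the RT and 0.119, 1.21 and 0.220 CPM in the SH. Its mean DT level was 386-fold the RT mean and 574-fold the SH mean.

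transcript124152, the next by score at 54.5, had 254, 644 and 547 CPM in the DT. Its RT values were 4.14, 0.256 and 0.880 CPM, and its SH values 2.68, 4.17 and 3.00 CPM. Most of its RT counts thus came from replicate 1. transcript27674 (score 53.2) had 267, 339 and 365 CPM in the DT and 2.33 to 4.54 CPM in the 6 other libraries.

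Of the 10 largest scores, transcript125709 was the one whose RT libraries all lay above the SH libraries (44.9% of all transcripts). It had 150, 254 and 155 CPM in the DT, 2.99, 2.88 and 1.70 CPM in the RT and 0.0395, 0.438 and 0.111 CPM in the SH. In transcript3703, transcript111552 and transcript114101 the order was the opposite, with all SH libraries above all RT libraries (22.3% of all transcripts). Their DT ranges were 99.8 to 154, 113 to 224 and 79.0 to 180 CPM, and no RT or SH value of theirs passed 2.31 CPM. transcript21005 had 176, 123 and 265 CPM in the DT and at most 2.27 CPM elsewhere, with RT and SH overlapping.

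transcript146154 came closest to being found in the differentiated root alone. It had 23.9, 37.1 and 36.0 CPM in the DT, 2 counts in RT replicate 1, and 0 counts in the other RT libraries and in all SH libraries. A count of 0 allows up to 3 counts over the 3 SH libraries, or 0.0375 CPM, so its mean DT level was at least 862-fold higher than in the SH. These limits cover counting error only.

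**Figure D2:**
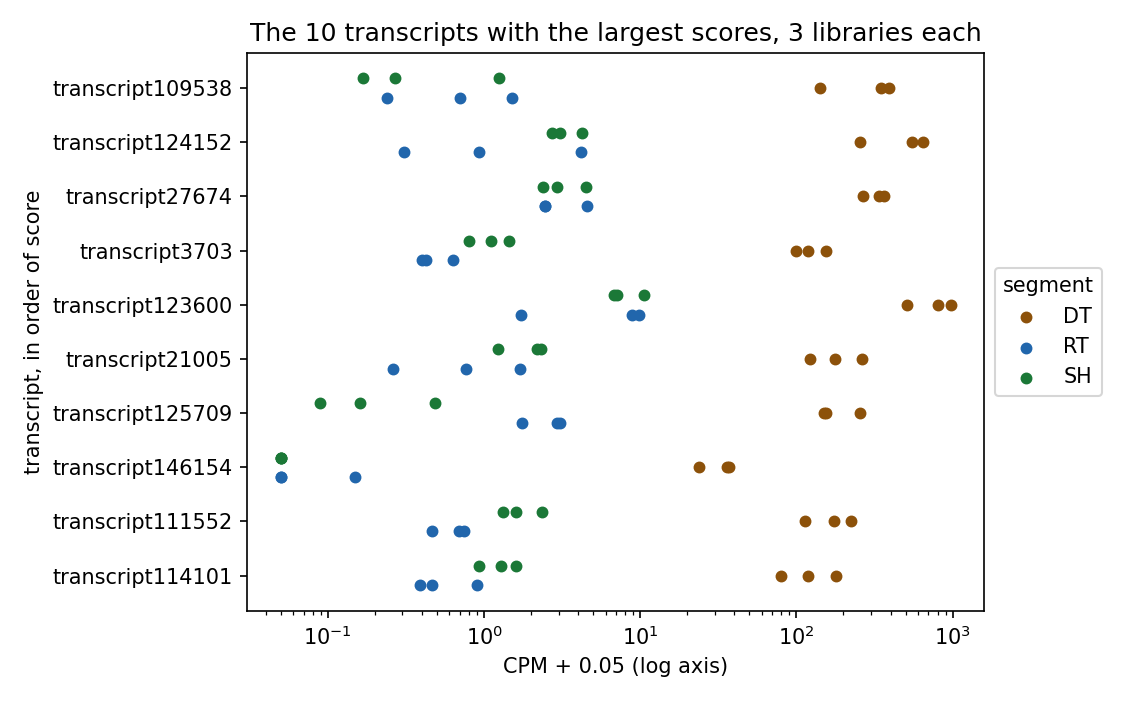
CPM of the 10 members with the largest scores in all 9 libraries, with 0.05 added and on a log axis; each point is a library, coloured by segment, and SH points are drawn a little above and RT points a little below the line of the transcript. DT values reached from 23.9 to 973 CPM and no RT or SH value passed 10.5 CPM.

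Apart from transcript146154, no member lacked counts in a whole segment. All 160 members had counts in at least 1 RT library and 159 in at least 1 SH library. At least 1 RT library had 0 counts in 11 members, and at least 1 SH library in 15. The RT mean was 2.19% of the DT mean at the median (range 0.0537% to 9.92%), and the SH mean was 1.63% (range 0 to 7.06%). The members were therefore strongly enriched in the differentiated root rather than absent elsewhere.

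At a mean under 1 CPM in both other segments stood 51 members. Another 19 were under 1 CPM in the RT alone, 27 in the SH alone and 63 in neither. A mean of at least 10 CPM was kept by 11 members in the RT and by 9 in the SH. Members with more RNA in the DT also kept more elsewhere: across the 160 members Spearman's rho with the DT mean was 0.73 for the RT mean and 0.76 for the SH mean. The rule allows a higher RT or SH value to a member with a higher DT level, so the choice itself favours a positive rho. These are correlations across transcripts of the same libraries, given as a description.

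Scores had a median of 12.4, with quartiles of 9.83 and 18.5. A score of 16 was reached by 52 members and of 32 by 15. The members nearest inside the limit of 8 were transcript69277 (8.04), transcript3998 (8.01) and transcript63207 (8.00). The nearest outside were transcript106549 (7.995), transcript48960 (7.98) and transcript3679 (7.98). transcript63207 had 102, 46.3 and 30.3 CPM in the DT and at most 3.34 CPM elsewhere, while transcript3679 had 353, 390 and 236 CPM in the DT and 27.5 to 29.2 CPM in the RT. The limit parted transcripts that were hardly different by score, and not by abundance.

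The same rule was applied with each other segment in the place of the DT. It chose 52 transcripts for the RT and 176 for the SH. Their median scores were 10.4 and 15.5, and the largest were 43.9 and 2090. The RT set took 0.632% ± 0.131 of RT counts and the SH set 3.47% ± 0.340 of SH counts (SD, n = 3), so the 2.39% of the DT set lay between them. In number, score and share alike, the DT set stood above the RT set and, except in mean level per transcript (medians of 59.7, 51.4 and 51.7 CPM for DT, RT and SH), below the SH set. These sets differ in the segment that chose them, and no test was made.

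The DT replicates did not give the members at equal levels. DT replicate 1 was the lowest of the DT libraries in 103 members, replicate 2 in 23 and replicate 3 in 34. Their shares were 64.4%, 14.4% and 21.3%, against 39.9%, 18.5% and 41.6% of the 13733 transcripts that reached 10 CPM. DT replicate 3 was the highest in 89 (55.6%, against 30.4%). Relative to the mean of the 3 DT libraries, the median member stood at 0.808 in replicate 1, 1.03 in replicate 2 and 1.14 in replicate 3. Over all 13733 transcripts with a mean DT level of at least 10 CPM the same medians were 1.01, 1.00 and 0.980, so the low level in DT replicate 1 was not found in the library at large.

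A shift the other way was seen in the RT. RT replicate 1 was the highest RT library in 112 members (70%), against 16 for replicate 2 (10%) and 32 for replicate 3 (20%). Over all 13733 transcripts the shares were 49.8%, 26.4% and 23.9%. The median member stood at 1.40, 0.693 and 0.862 of the RT mean in replicates 1 to 3, against 1.06, 1.00 and 0.923 over all 13733 transcripts. In the SH the medians were 0.858, 1.05 and 1.01, against 0.963, 1.01 and 1.02. DT replicate 1 and RT replicate 1 thus lay nearer to each other for these transcripts than the other libraries of both root segments did. CriWOXB did not share the low level in DT replicate 1, where it was highest, but was likewise highest in RT replicate 1. The labels give no batch or dissection record per library, and what moved with these levels was not tested.

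**Figure D3:**
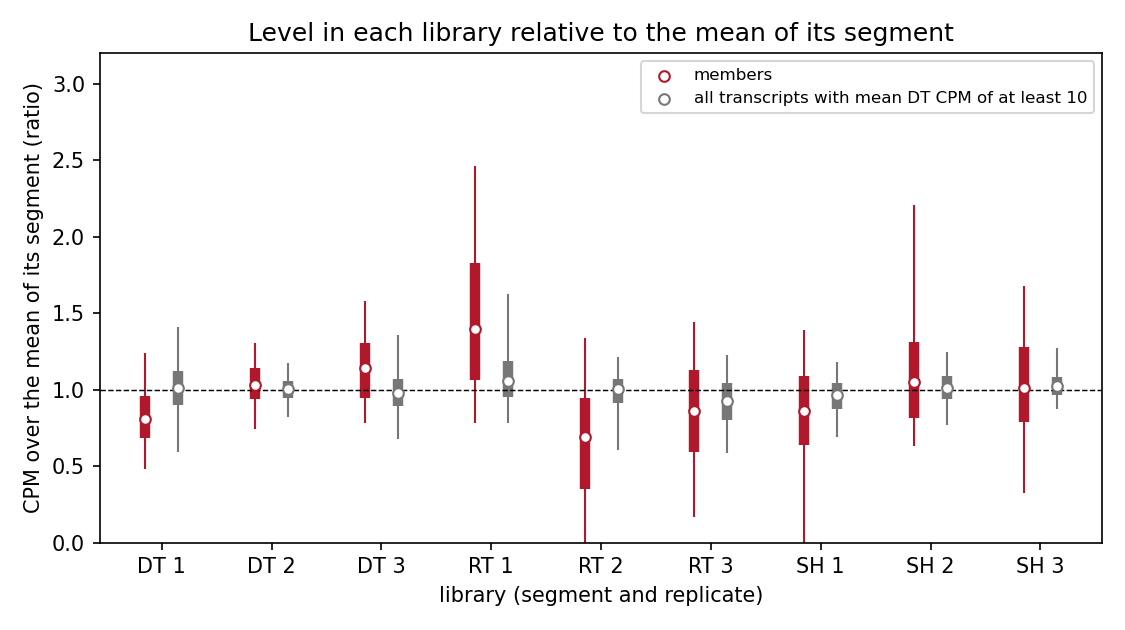
CPM in each library over the mean of the 3 libraries of its segment, for the members (red) and for all transcripts with a mean DT level of at least 10 CPM (grey); circles are medians, thick bars quartiles and thin lines the 5th to 95th percentile. The members' medians were 0.808 in DT replicate 1 and 1.40 in RT replicate 1, while the grey medians stayed between 0.923 and 1.06.

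DT replicate 1 set the DT side of the score in most members, while RT replicate 1 set the other side in fewer. The lowest DT library was replicate 1 in 64.4% of members. The highest of the 6 others was RT replicate 1 in 66 members (41.25%), more often than any other library. In all, the library that limited the score was an RT library in 101 members and an SH library in 59. The spread among DT libraries was also wide, with a median coefficient of variation (SD over mean) of 24.6%, against 12.2% over all 13733 transcripts. It was likewise wide in the sets chosen for the RT (22.2% against 15.4%) and the SH (15.7% against 10.04%), so it was not a property of the DT members alone.

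Single members show how far the DT libraries could part. transcript123023 had 33.9, 161 and 309 CPM in the DT, a coefficient of variation of 82.0%, the largest of all members. transcript96737 had 11.4, 11.4 and 10.8 CPM, with the smallest at 3.19%. Abundant members were found at both ends, with transcript28674 at 5.97% and transcript124759 at 63.3%.

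Each library was left out in turn, and transcripts were chosen on the 8 others. Their score was then taken with the library left out on its side of the ratio. The other side of the ratio had a part in the choice, so this is a description and not an independent check of the members. With DT replicate 2 left out 164 transcripts were chosen, and 98.2% of them had a score of at least 8 in that library. With DT replicate 3 it was 88.8% of 178. With DT replicate 1 it was 58.1% of 277, while 83.0% reached 4 and 99.3% reached 1. The weaker return in DT replicate 1 was thus mostly one of size, with a score under 1 in 2 of the 277 transcripts.

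For the RT and SH libraries, the lowest DT value was set over the library left out. Transcripts that reached a score of 8 there too were by definition the 160 members. Each share at 8 is therefore 160 over the number chosen. With RT replicate 1 left out 224 transcripts were chosen, and 71.4% had a score of at least 8 over that library and 91.1% of at least 4. With RT replicates 2 and 3 it was 96.4% of 166 and 92.5% of 173 at a score of 8. With SH replicates 1 to 3 it was 98.2% of 163, 95.8% of 167 and 97.0% of 165.

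**Figure D4:**
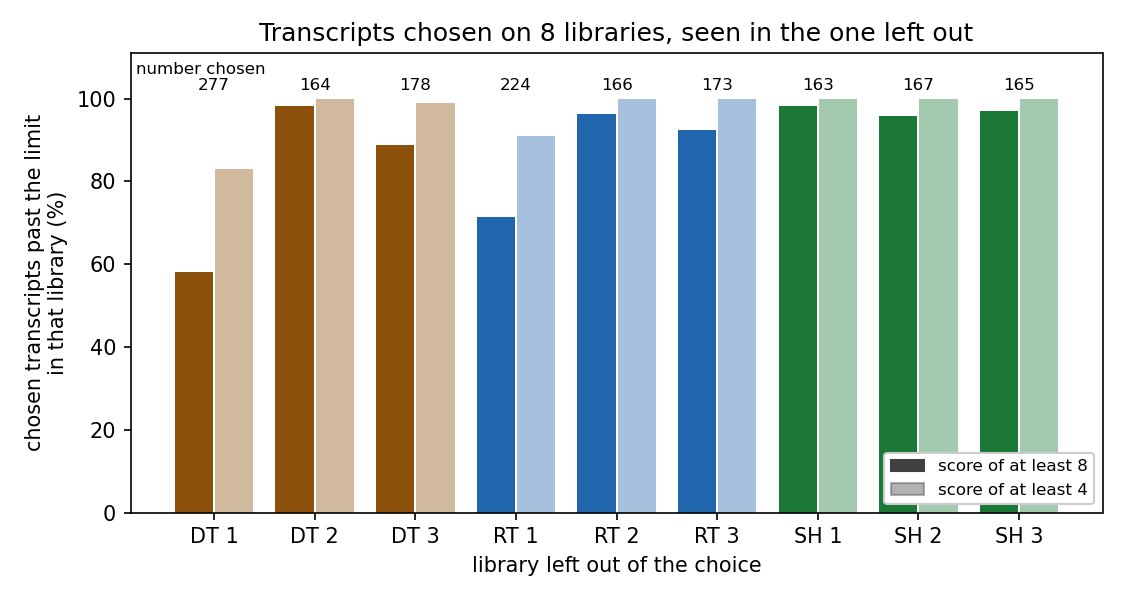
Share of transcripts, in percent, that had a score of at least 8 (dark bars) or 4 (light bars) in the library left out, after being chosen on the 8 other libraries; the number above each pair of bars is how many were chosen. Bars at 8 fell to 58.1% for DT replicate 1 and 71.4% for RT replicate 1 and were at least 88.8% for the 7 other libraries.

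The rule did not use the difference between the root tip and the shoot, so this comparison could be tested. It asks whether transcripts of the mature root were kept at a higher level in the rest of the root or in the shoot. A call needed an adjusted p no higher than 0.05 and a log2 fold change of 2 or more either way (edgeR's quasi-likelihood test, Benjamini-Hochberg over all 28952 transcripts). Higher in the RT were 22 members (13.8%), where 9.32% of all transcripts and 12.5% of the 14754 other transcripts at a like RT and SH level (0.144 to 11.0 CPM) were called. Higher in the SH were 19 members (11.9%), where the shares were 11.9% and 12.8%. With all 9 libraries and this scaling, both counts lay near the background of transcripts at a like level.

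At an adjusted p of at most 0.05 with no limit on the fold, 34 members were higher in the RT (21.3%, against 29.9% of all transcripts and 25.9% at a like level) and 43 in the SH (26.9%, against 28.2% and 23.5%). The other 83 did not pass. In 44 members (27.5%) all RT libraries lay above all SH libraries, against 44.9% of all transcripts and 39.3% at a like level. In 29 (18.1%) all SH libraries lay above all RT libraries, against 22.3% and 19.6%. The median log2 fold change of RT over SH was -0.29 in the members and 0.11 over all transcripts. The sign of the members' median depended on the scaling: by library size alone it was 0.14, the median of all transcripts moved up by 0.42, and the calls were 26 higher in the RT and 12 in the SH. As shares these were 16.3% and 7.5%, against 17.1% and 10.04% at a like level.

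The count in the SH also depended on RT replicate 1. Without that library 32 members (20%) were higher in the SH, against 13.05% of all transcripts and 15.03% at a like level. Higher in the RT were then 19 (11.9%), against 8.83% and 11.1%. The share of members higher in the SH thus lay below or near the like-level background with all libraries and above it without RT replicate 1, and no test was made of this difference.

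The 22 members higher in the RT stood highest in the mature root, lower in the tip and lowest in the shoot. Their DT means ran between 14.4 and 478 CPM with a median of 50.1 CPM. At the median the RT kept 4.80% of the DT level and the SH 0.44%. In all 22 the RT libraries lay above the SH libraries. The call used the same values and favours this order, so the 44.9% of all transcripts is no background for it.

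The largest RT over SH change was that of transcript23023, with 45.7, 42.6 and 35.1 CPM in the DT. It had 1.74, 1.92 and 2.22 CPM in the RT and 0.198, 0.0731 and 0.0367 CPM in the SH. The log2 fold change of RT over SH was 3.82 (standard error 0.42, adjusted p = 4.73e-05, edgeR's quasi-likelihood test with Benjamini-Hochberg adjustment). Its DT libraries were close together, as were its RT libraries.

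transcript42326 followed, with 77.7, 61.9 and 69.5 CPM in the DT, 1.25 to 1.64 CPM in the RT and 0, 0.183 and 0.0733 CPM in the SH. Its log2 fold change was 3.59 (standard error 0.47, adjusted p = 0.000126 by the same edgeR test). Its 7 counts over the SH libraries make the size of this fold uncertain. In both members all RT libraries lay above all SH libraries.

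The 19 members higher in the SH had the opposite gradient, with the root tip as the lowest segment. Their DT means ran from 12.7 to 859 CPM with a median of 66.1 CPM. At the median the SH kept 2.80% of the DT level and the RT 0.628%. In 17 of the 19 all SH libraries lay above all RT libraries. This order too is favoured by the call, so the 22.3% of all transcripts is no background for it.

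transcript69949 had the largest change in this direction, with 71.3, 67.1 and 59.8 CPM in the DT. It had 0.399, 0 and 0 CPM in the RT and 3.04, 3.51 and 3.74 CPM in the SH. The log2 fold change of RT over SH was -5.26 (standard error 0.63, adjusted p = 7.67e-05, edgeR's quasi-likelihood test with Benjamini-Hochberg adjustment). Its 8 RT counts were all in replicate 1.

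transcript3485 had 226, 463 and 759 CPM in the DT, 0.698, 0.0417 and 0.0376 CPM in the RT and 3.12, 5.92 and 8.84 CPM in the SH. Its log2 fold change was -5.07 (standard error 0.80, adjusted p = 0.000428 by the same edgeR test). Of its 16 RT counts, all but 2 were in replicate 1. It was thus present in the shoot and the mature root and near the limit of detection in RT replicates 2 and 3.

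**Figure D5:**
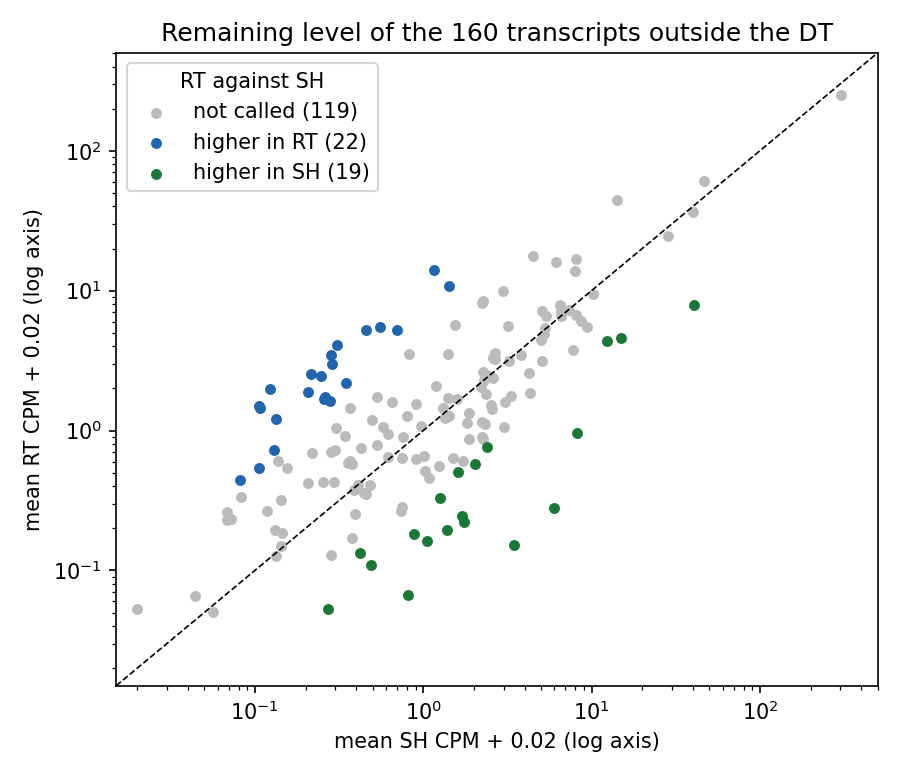
Mean RT level against mean SH level of each member in CPM, with 0.02 added and on log axes; blue points were called higher in the RT (22), green points higher in the SH (19) and grey points neither (119), and the dashed line marks equal levels. The called members spread on both sides of the line, and the member at the upper right is transcript125795.

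The replicate pattern differed in count between these groups of members. DT replicate 1 was the lowest DT library in 6 of the 22 members higher in the RT, in 14 of the 19 higher in the SH and in 83 of the 119 others. RT replicate 1 was the highest RT library in 9, 16 and 87 of them (40.9%, 84.2% and 73.1%). Over the 13733 transcripts that reached 10 CPM, DT replicate 1 was lowest in 39.9% and RT replicate 1 highest in 49.8%. The calls used the RT values, so they can themselves shape how often an RT library stood out. The median coefficient of variation in the DT was 16.1%, 30.7% and 25.5% for these groups in the same order. These are descriptions of the 9 libraries with no test, and single members departed from them, such as transcript63207, which was higher in the RT and had a coefficient of variation of 63.4%.

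Some members had neighbouring numbers in the assembly. In 4 pairs, 8 members had another member at the next number, or 5% of the 160, while 112 members had any transcript there. Members are 160 of the 28952 transcripts, and whether 8 is more than this share would give was not tested. transcript124152 and transcript124153 both had their lowest DT level in replicate 1, at DT means of 482 and 15.1 CPM. transcript108591 had 497, 494 and 443 CPM in the DT, 10.5 to 11.0 CPM in the RT and 0.880 to 2.16 CPM in the SH. Its neighbour transcript108590 had 56.4, 58.8 and 78.7 CPM in the DT, 0.668 to 3.04 CPM in the RT and 2.34 to 4.40 CPM in the SH. RT and SH libraries overlapped for transcript108590, while all RT libraries lay above all SH libraries for transcript108591.

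In the pair transcript51912 and transcript51913, transcript51912 had 40.6, 25.5 and 84.1 CPM in the DT and overlapping levels of 0.376 to 1.84 CPM in the RT and 0.435 to 0.733 CPM in the SH. transcript51913 had 31.8, 59.3 and 109 CPM in the DT, at most 0.548 CPM in the RT and 0.751 to 3.23 CPM in the SH. Of the 139 other transcripts at a number next to a member, 38.8% had their highest mean in the DT, against 35.6% of all transcripts.

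Reads that fit more than 1 transcript are divided by kallisto, which leaves counts that are not whole. Of the members' DT values 35.4% were more than 0.001 from a whole number, against 20.2% of DT values of all transcripts with a mean of at least 10 CPM. In the set chosen by the same rule for the RT it was 25.6% against 18.2%, and in that for the SH 29.5% against 19.99%. All 3 DT values were not whole in 41 members, whose levels therefore rest in part on how reads were shared with similar transcripts. In 88 members all 9 values were whole within 0.001.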

How the data were processed

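The authors trimmed the reads with Trimmomatic (0.32), checked them with FastQC (0.11.2), assembled the transcriptome of all libraries and quantified each library against it with kallisto (0.44.0), per the methods and the submitters' processing notes. The table that the authors deposited is named for TPM but holds estimated counts per transcript, not divided by library size or length. It had 0 columns of no sample. It is also named for filtered genes, and the paper describes removing genes with low counts across the samples. Library totals, shares of all counts and shares of all transcripts are therefore those of a filtered set.

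CPM was the count over the column sum, scaled to a total of 1000000, with no other scaling. For RT against SH the values were rounded to whole counts and tested in R 4.3.3 with edgeR 4.0.16. The quasi-likelihood test used TMM factors, 1 coefficient per segment over all 9 libraries and a prior count of 0.125. Benjamini-Hochberg adjustment was over 28952 transcripts, with no filter beyond that of the authors. The standard error is the log2 fold change over the root of F. The fit was also run on simulated data, where the changed transcripts had a mean level of at least 1 CPM. That run does not cover the 51 members under 1 CPM in both RT and SH. The DT was not tested against the other segments, because the choice used those values. Replicate libraries of a segment differed by a mean chi-square of at least 18.1 per transcript, where about 1 would come from counting alone, so none was counted as a duplicate.

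Transcripts were named by rule: the 10 largest scores, the 10 highest DT means, the 3 nearest each side of the score limit, the 2 largest RT against SH folds each way among those called, the extremes of DT spread, 3 pairs of adjacent numbers and 3 transcripts numbered in the paper. The members and lists were chosen with earlier results of these data known. Alternatives were other scalings, filters, thresholds, prior counts, fits and pseudocounts, DESeq2 1.42.0, limma 3.58.1 voom, the replicate number as a block, and each library left out.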

Additional observations from a re-analysis of the deposited data

How the results depend on the processing

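The number of transcripts past the rule was 446 at a score limit of 4, 52 at 16, 91 at a mean DT level of at least 50 CPM and 442 when segment means were compared in place of single libraries. It ranged from 163 to 277 with each library left out (277 without DT replicate 1). Members called higher in the SH fell from 19 to 12 by library size alone (7.5%, against 8.96% of all transcripts). They were 41 with a fold limit of 1 (log2) and 43 with no fold limit, where 34 were higher in the RT. At the main limits the members higher in the SH ranged from 13 to 32 with each library left out. The 32 (20%) were without RT replicate 1, against 13.05% of all transcripts and 15.03% at a like level. The 13 (8.13%) were without RT replicate 2, against 11.8% and 12.2%. Over all transcripts 5953 and 6173 were called higher in the RT and the SH with that limit of 1, and 8649 and 8172 with no fold limit. The members' median log2 fold change was 0.14 by library size alone and from -0.64 to -0.13 with each library left out. Without the 10 most abundant members the summed levels were 13331 CPM in the DT, 401 in the RT and 287 in the SH, and with TMM scaling the SH sum was 952 and the RT sum 720. Within 5 and 10 numbers 13 and 15 members had another member. Over all 9 libraries, 22.8% of member values were more than 0.001 from whole and 13.0% more than 0.05. The same shares over all transcripts were 17.3% and 10.2%. Of the members' DT values 21.0% were more than 0.05 from whole, against 11.1% for transcripts with a mean DT level of at least 10 CPM. The replicate number did not pair the libraries (correlations of deviations from -0.40 to 0.15 between same-numbered libraries). With it as a block 21 and 19 members (13.1% and 11.9%) were called higher in the RT and the SH. The shares were 8.87% and 11.8% of all transcripts and 11.8% and 12.7% at a like level. DESeq2 called 22 and 21 (13.75% and 13.1%). There the shares were 9.42% and 12.1% of all transcripts and 12.7% and 13.1% at a like level.

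Of the RT against SH log2 fold changes of the named members, those that changed sign were not past the threshold. By library size alone they were 0.38 for transcript28674, 0.28 for transcript95256 and 0.23 for transcript123023. With upper quartile factors transcript28674 was at 0.060, and with limma voom transcript51912 at -0.11. With each library left out, transcript109538 ranged from -0.84 to 1.69, transcript28674 from -0.26 to 0.31, transcript95256 from -0.46 to 0.076, transcript96737 from -0.011 to 0.47, transcript123023 from -1.11 to 0.19, transcript124153 from -0.55 to 3.12 and transcript51912 from -0.66 to 0.48. Without RT replicate 1 transcript146154 had no counts in either segment and no value. The causes were not tested. Depth limits RT and SH levels under about 0.1 CPM, and the 3 libraries per segment limit every comparison.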
